A study of Homo sapiens with 4 samples.

Results

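Cytosolic ribosomal protein genes encode the proteins of the ribosome that translates nuclear mRNAs. They were taken as the genes with a symbol of RPL or RPS, a number and at most a final A, L or X, together with RPLP0, RPLP1, RPLP2 and RPSA. The rule found 81 of the 61806 genes listed, of which 49 belong to the large and 32 to the small subunit. FAU, which encodes a ribosomal protein of the small subunit fused to a ubiquitin-like protein, and RACK1, a scaffold protein of the small subunit, carry other names and are described beside the members.

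Poly(A) RNA was sequenced from 2 established human cancer cell lines, MDA-MB-231 (breast) and MDA-MB-435 (a line with melanocyte features), each as an untreated control and after CPYPP, an inhibitor of DOCK guanine nucleotide exchange factors. CPYPP was given at 10 µM according to the treatment description and for 6 h according to the sample labels. There was 1 library per condition, so differences between cultures of a line were not measured. Because the descriptions of growth and treatment mention MDA-MB-435 alone, each sample's line was taken from its own cell line label. SOX10, a melanocyte lineage gene, had at most 1 count in either library labelled MDA-MB-231, compared with at least 707 in each labelled MDA-MB-435. Counted reads per library ranged from 17196385 to 22663954.

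A ribosome takes up its proteins in fixed proportions, and free ribosomal proteins are unstable. Their mRNAs are among the most abundant of growing cells, and most begin with a C and an unbroken run of pyrimidines, the terminal oligopyrimidine (TOP) motif, through which mTORC1 and the RNA-binding protein LARP1 control translation. A few ribosomal proteins have a second gene with a related sequence, whose mRNA is often restricted to muscle or testis.

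The start of transcription was read from RefSeq sequences of GRCh38.p14, which held 64 of the 81 members. A start was counted as TOP-like when its first base was C and at least 4 further bases followed without a purine, on the transcribed strand alone. Of the 64 genes, 46 (71.9%) had at least 1 listed start of this kind, compared with 1404 of all 27305 genes of the table (5.14%) and 6 of 69 mitochondrial ribosomal protein genes (8.70%). The share was 71.8% for the large subunit (28 of 39) and 72.0% for the small subunit (18 of 25). Below, 10 bases before and 20 bases from the start are shown 5′ to 3′ for RPS6, some other members discussed here and 3 paralog pairs. Capitals mark the pyrimidine run that begins with a C at the start.
RPS6, chr9:19380217-19380246, minus strand: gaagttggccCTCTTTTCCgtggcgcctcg
RPLP0, chr12:120201092-120201121, minus strand: ggcgcgaggcCCTTCTCTCgccaggcgtcc
RPLP1, chr15:69452808-69452837, plus strand: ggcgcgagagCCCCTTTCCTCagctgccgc
RPLP2, chr11:809957-809986, plus strand: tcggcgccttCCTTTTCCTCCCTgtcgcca
RPS24, chr10:78033853-78033882, plus strand: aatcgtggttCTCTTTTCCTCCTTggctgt
RPL39, chrX:119791611-119791640, minus strand: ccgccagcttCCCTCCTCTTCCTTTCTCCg
RPL31, chr2:101002279-101002308, plus strand: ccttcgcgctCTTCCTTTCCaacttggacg
RPS26, chr12:56041908-56041937, plus strand: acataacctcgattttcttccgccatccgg
RPS27, chr1:153990752-153990781, plus strand: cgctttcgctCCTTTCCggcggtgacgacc
RPS27L, chr15:63157458-63157487, minus strand: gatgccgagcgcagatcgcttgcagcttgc
RPL22, chr1:6199576-6199605, minus strand: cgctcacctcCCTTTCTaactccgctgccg
RPL22L1, chr3:170870176-170870205, minus strand: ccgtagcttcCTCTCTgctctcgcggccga
RPL36A, chrX:101391001-101391030, plus strand: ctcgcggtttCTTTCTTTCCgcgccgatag
RPL36AL, chr14:49620607-49620636, minus strand: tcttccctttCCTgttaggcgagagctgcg

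RPL39 had the longest run, of 19 bases, and the median of the longest run over the 46 genes was 8. RPS27 carried a run of 7 bases, whereas its paralog RPS27L began with a G and carried none at the listed start. RPL22 and RPL22L1 both carried one, and in the pair RPL36A and RPL36AL the run was 10 against 3 bases. A listed start is an annotation and was not measured in these cells.

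Ribosomal protein mRNAs were abundant in each library. Their counts summed to 680530 of 22359735 in the MDA-MB-231 control (3.04%, 95% Clopper-Pearson interval 3.04% to 3.05%) and to 466867 of 17196385 after CPYPP (2.71%, 2.71% to 2.72%). In MDA-MB-435 they summed to 831939 of 22663954 in the control (3.67%, 3.66% to 3.68%) and to 746757 of 19489282 after CPYPP (3.83%, 3.82% to 3.84%). The share was thus lower with CPYPP in MDA-MB-231 and higher with CPYPP in MDA-MB-435, and both MDA-MB-435 libraries lay above both MDA-MB-231 libraries. These intervals cover counting error only, and the samples include no repeat culture against which the differences could be judged. The share of counts on the mitochondrial genome, which enters the same totals, was 5.34% and 4.21% in the MDA-MB-231 control and CPYPP libraries and 4.73% and 3.55% in those of MDA-MB-435.

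At least 1 count in every library was found for 80 members, and 74 had at least 1000 in every library. To compare genes, CPM values (counts relative to the library size after scaling by TMM, the trimmed mean of M-values, per 1000000 reads) were divided by the exon length in kilobases. Members with the highest mean level in the controls were RPL7A (472 CPM per kb in the MDA-MB-231 control and 470 in that of MDA-MB-435), RPL8 (357 and 508), RPS2 (393 and 462), RPL41 (422 and 412) and RPS12 (315 and 363). RPL7A, RPL8 and RPL41 are proteins of the large subunit, RPL41 being the smallest of all, and RPS2 and RPS12 belong to the small subunit. The lowest were RPL10L, RPL3L, RPS27L (5.09 and 9.35), RPS29 (7.78 and 6.75) and RPL36A (17.05 and 18.8).

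The deposited exon length merges the exons of all transcripts, which for RPS29 gave 9840 bases. With the length of the principal transcript in GENCODE v29, which was found for 73 members, RPS29 came to 157 and 137 CPM per kb in the controls and RPL36A to 158 and 174, so their place at the lower end depended on the length used. By this measure RPL7A remained the highest (1184 and 1180), followed by RPS2, RPS18, RPL12 and RPLP0. RPS12 came to 319 and 368, so its place at the upper end also depended on the length used. The lowest by principal transcript were RPL10L, RPL3L, RPS27L (6.98 and 12.8) and RPL39L (23.2 and 51.1).

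**Figure D1:**
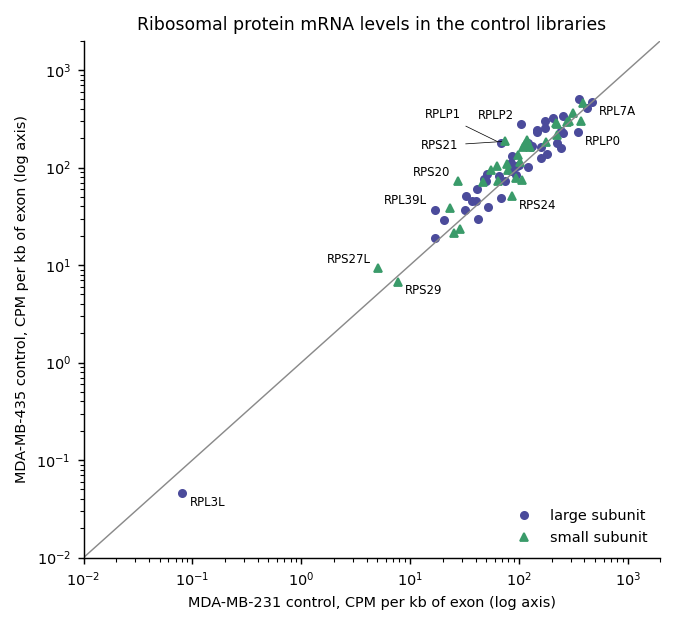
Level of each ribosomal protein mRNA in the MDA-MB-231 control (x axis) and the MDA-MB-435 control (y axis), in CPM per kilobase of exon on log axes, for 79 of the 80 members with a count in every library. Circles are large subunit and triangles small subunit genes, the line marks equal levels, and RPL3L, at 0.081 and 0.046, stands apart from the rest.

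Whether CPYPP moved ribosomal protein mRNAs in the same way in both lines was tested with edgeR's quasi-likelihood test on all 4 libraries, blocked by line. No member passed at an adjusted p under 0.05, 0 of 79 tested being higher and 0 lower, whereas 4.39% of all 16801 genes tested were called higher and 2.85% lower. The smallest adjusted p among the members was 0.407 for RPL39 (log2 fold change 0.20 ± 0.12, SE), and 0 members had an unadjusted p under 0.05. DESeq2 on the same libraries also called 0. The median log2 fold change of the members was 0.01 with a range of -0.18 to 0.20, and the median of all genes was -0.04. This fit has 1 residual degree of freedom, and the lines stand in for replicates, so that responses that differ between the lines add to its error.

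Among the members with the highest common log2 fold change were RPL39 (0.20), RPL18 (0.10), RPL14 (0.09), RPS3 (0.08) and RPS23 (0.08), none of which passed the test. At the other end were RPL39L (-0.18), RPS26 (-0.15), RPLP2 (-0.10), RPL36A (-0.09), RPS27L (-0.08) and RPL12 (-0.07), which did not pass either. RPL39 lines the exit tunnel of the ribosome, and RPL39L, its paralog known from male germ cells, stood at the opposite end of this order. RPS26 sits at the exit of the mRNA channel, and RPLP2 is part of the stalk that recruits elongation factors.

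Within each line the CPYPP library was compared with its control by an exact binomial test on the counts, which compares these libraries and covers counting error only. Of the members, 0 of 79 passed a fold over 2 with an adjusted p under 0.05 in MDA-MB-231, where 7.31% of 16441 genes did, and 0 of 79 in MDA-MB-435, where 9.69% of 16527 genes did. The members differed instead by small amounts in opposite directions. Their median log2 fold change was -0.12 in MDA-MB-231 (range -0.28 to 0.05) and 0.21 in MDA-MB-435 (range -0.07 to 0.46), beside medians of all genes of -0.01 and -0.02.

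In MDA-MB-231, 76 of 79 members were lower in the CPYPP library than in the control, and the 95% interval of the fold lay below 1 for 65 and above 1 for 0, compared with 23.6% and 26.3% of all genes tested. In MDA-MB-435, 77 of 79 were higher, and the interval lay above 1 for 75 and below 1 for 0, compared with 29.0% and 25.9% of all genes tested. These counts depend on the scaling: with total counts 79 were lower in MDA-MB-231, but 60 were higher and 19 lower in MDA-MB-435, and with upper quartile scaling 71 were higher and 8 lower there. A change of scaling shifts all genes of a line alike, so the distance of the members' median from that of all genes stays the same by construction. It was -0.11 in MDA-MB-231, against 0.23 in MDA-MB-435. That the members lay below the median gene in one line and above it in the other therefore cannot depend on the scaling, and trying several scalings does not test it. Whether repeat cultures would differ by as much was not measured.

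In MDA-MB-231, 0 members were more than 25% higher or more than 20% lower with CPYPP (the same size on a log scale), where 22.9% of all genes were higher and 21.8% lower by that much. In MDA-MB-435, 5 members were higher and 0 lower by that much, beside 22.0% and 28.5% of all genes. The 5 were RPL39 (1.38-fold, 95% interval 1.32 to 1.43), RPS23 (1.27-fold, 1.23 to 1.31), RPL9 (1.26-fold, 1.23 to 1.30), RPL21 (1.26-fold, 1.22 to 1.29) and RPS27A (1.251-fold, 1.22 to 1.28). RPS23 and RPS27A, which is made as a fusion with ubiquitin, belong to the small and the others to the large subunit. Under total counts 0 members were more than 25% higher there.

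**Figure D2:**
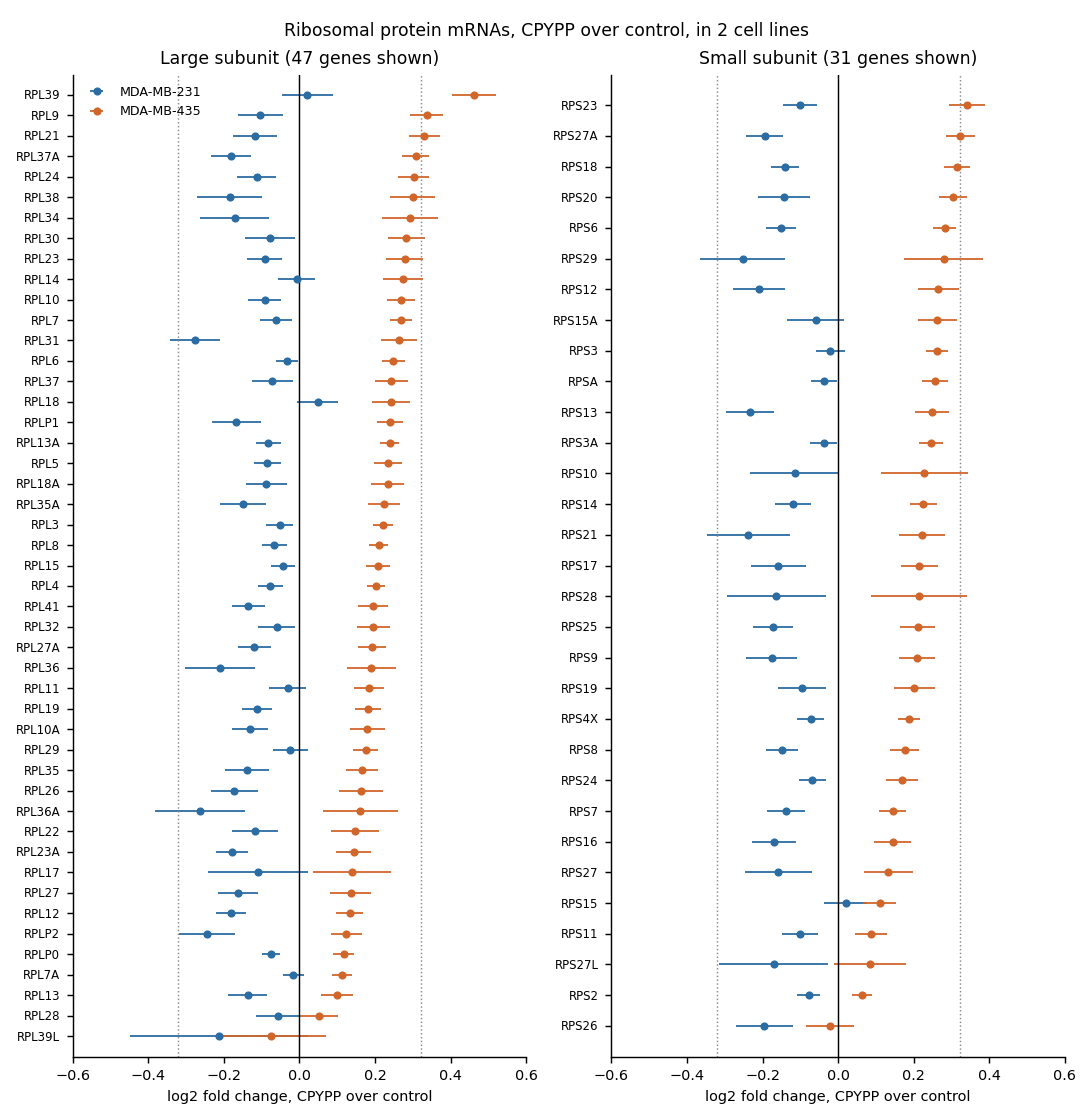
Log2 fold change of CPYPP over control for the 47 large subunit genes (left) and 31 of the 32 small subunit genes (right) tested, in MDA-MB-231 (blue) and MDA-MB-435 (orange), ordered by the value in MDA-MB-435. Bars are 95% intervals for counting error and dotted lines mark 25% higher and 20% lower; the blue points sit between -0.28 and 0.05 and the orange points between -0.07 and 0.46.

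The spread of the members was narrow. The interquartile range of their log2 fold changes was 0.10 in both lines, whereas that of all genes was 0.56 in MDA-MB-231, against 0.67 in MDA-MB-435. Since noise is larger at low counts, genes with at least 1000 counts in every library were also compared, 3382 in all, of which 74 were members. In MDA-MB-231 their interquartile range was 0.34, beside 0.10 for the 74 members, and in MDA-MB-435 it was 0.36, beside 0.09. The medians of these 3382 genes were 0.05 and 0.15, and those of the 74 members -0.11 and 0.22. Abundant genes as a whole thus had a median above 0 in MDA-MB-435 too, and the members' median lay higher still. In MDA-MB-231 the interval lay below 1 for 62 of the 74 members and above 1 for 0, beside 27.9% and 47.0% of the abundant genes. In MDA-MB-435 it lay above 1 for 72 of 74 and below 1 for 0, beside 63.5% and 17.6%.

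The medians of the subunits lay close together. In MDA-MB-231 the median log2 fold change was -0.11 for the large subunit (45 of 47 lower) and -0.14 for the small subunit (31 of 32 lower). In MDA-MB-435 it was 0.21 (46 of 47 higher) and 0.22 (31 of 32 higher). Large subunit genes held 63.7% of member counts in the MDA-MB-231 control (95% interval 63.6% to 63.8%) and 64.0% after CPYPP (63.8% to 64.1%), and 63.4% in both MDA-MB-435 libraries (63.3% to 63.5% in each). The balance of the subunits therefore moved by less than 1 percentage point across the 4 libraries.

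By TMM the interval lay below 1 in MDA-MB-231 and above 1 in MDA-MB-435 for 63 of 79 members. This pattern was found for 3.72% of the 14262 genes tested in both lines. By the same scaling 0 members had intervals on the same side of 1. The log2 fold change was higher in MDA-MB-435 for 79 of 79 members under each of the 6 scalings, beside 53.5% of all genes by TMM. The interval of MDA-MB-435 lay wholly above that of MDA-MB-231 for 76 members, beside 18.0% of all genes. Among genes with at least 1000 counts in every library the 3 shares were 9.76%, 67.3% and 40.4%, and 61, 74 and 72 of the 74 members of that abundance met the same conditions. The median difference between the lines was 0.32 on the log2 scale, with a range of 0.09 to 0.54, and it was 0.24 with total counts. With 1 library per condition a difference between the responses of the lines cannot be tested against the spread between cultures.

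RPL31, a large subunit protein near the exit of the tunnel, differed most between the lines. It had 4925 counts in the MDA-MB-231 control and 2981 after CPYPP (0.826-fold, 0.789 to 0.865), and 7520 and 6997 in MDA-MB-435 (1.20-fold, 1.16 to 1.24). RPS29, a zinc-binding protein of the small subunit, followed with 1714 and 1054 counts in MDA-MB-231 (0.839-fold, 0.777 to 0.907) and 1574 and 1481 in MDA-MB-435 (1.21-fold, 1.13 to 1.30). RPS27A and RPL37A came next, with log2 fold changes of -0.19 and -0.18 in MDA-MB-231, against 0.32 and 0.31 in MDA-MB-435. Each of these 4 genes was lower with CPYPP in the first line and higher in the second, with intervals that excluded 1. Genes on the opposite strand overlap RPL31 and RPS29 and held 14.5% and 59.9% as many counts, and their reads cannot be told apart in the overlapping parts.

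The smallest differences between the lines were those of RPS15, RPL28, RPL39L and RPL7A. RPS15, a protein of the head of the small subunit, had 5704 and 4236 counts in the MDA-MB-231 control and CPYPP libraries (1.01-fold, 0.974 to 1.05) and 9663 and 8086 in MDA-MB-435 (1.08-fold, 1.05 to 1.11). RPL7A had 23641 and 17126 counts (0.989-fold) and 24905 and 20895 counts (1.08-fold). RPL28, which overlaps the opposite-strand gene UBE2S (71.2% as many counts), gave 0.961-fold and 1.04-fold. For RPL28, RPS15 and RPL39L the intervals of the lines overlapped.

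RPL39 departed from most members in both lines. It had 4064 counts in the MDA-MB-231 control, 3021 after CPYPP, 4611 in the MDA-MB-435 control and 4924 after CPYPP. The CPYPP library of MDA-MB-435 was the shallower of its pair, yet RPL39 had more counts in it than in the control, unlike the other 78 members tested. The fold was 1.01 in MDA-MB-231 (0.968 to 1.06) and 1.38 in MDA-MB-435 (1.32 to 1.43). RPS26 lay at the other end of the small subunit, with 3619 and 2315 counts in MDA-MB-231 (0.873-fold, 0.828 to 0.920) and 4552 and 3478 in MDA-MB-435 (0.985-fold, 0.942 to 1.03). RPS26 and RPL39L were the 2 members that were not higher with CPYPP in MDA-MB-435, and neither interval excluded 1.

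RPS6, the small subunit protein that S6 kinases phosphorylate, had 13413 counts in the MDA-MB-231 control and 8851 after CPYPP (0.901-fold, 0.877 to 0.925). In MDA-MB-435 it had 17941 and 16924 (1.22-fold, 1.19 to 1.24). RPL5 and RPL11, which with 5S RNA form a particle that can bind MDM2, gave 0.943-fold (0.919 to 0.967) and 0.978-fold (0.945 to 1.01) in MDA-MB-231. The same genes gave 1.18-fold (1.15 to 1.21) and 1.14-fold (1.10 to 1.17) in MDA-MB-435. RPSA, also known as the laminin receptor precursor, gave 0.975-fold and 1.19-fold, RPS3, which lines the entry of the mRNA channel, 0.986-fold and 1.20-fold, and RPL41 0.910-fold and 1.15-fold. For RPL11 and RPS3 the interval in MDA-MB-231 held 1.

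Members with and without a TOP-like start did not lie far apart. The 46 genes with one had a median log2 fold change of -0.14 in MDA-MB-231, against 0.22 in MDA-MB-435. The 17 tested genes without one at a listed start, among them RPS26, RPS27L and RPL4, had medians of -0.11 and 0.19. No test was made of this difference, and the ranges overlapped in both lines (-0.28 to 0.05 against -0.25 to 0.02, and 0.05 to 0.46 against -0.02 to 0.34).

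Other mRNAs with a TOP motif, which encode translation factors and a few further proteins, had medians of -0.06 in MDA-MB-231, against 0.19 in MDA-MB-435 over 27 genes. In MDA-MB-231, 18 of these were lower, beside 8416 of all 16441 genes, and in MDA-MB-435, 25 were higher, beside 8039 of 16527. Of the 3382 genes with at least 1000 counts in every library, 1355 were lower in MDA-MB-231 and 2497 higher in MDA-MB-435. Their medians were 0.05 and 0.15, so the median of the 27 genes lay near theirs in MDA-MB-435 and below theirs in MDA-MB-231. In the common fit 0 of the 27 were called, beside 4.39% of all genes called higher and 2.85% lower. EEF1A1, the elongation factor that brings tRNA to the ribosome, had 195362 and 133100 counts in MDA-MB-231 (0.930-fold, 0.923 to 0.936) and 274653 and 250300 in MDA-MB-435 (1.18-fold, 1.17 to 1.18). EEF2, the translocation factor, was 1.10-fold and 1.18-fold. TPT1, the translationally controlled tumour protein, had the highest common value of this list at 0.23 ± 0.11 (adjusted p = 0.270, edgeR), and VIM, an intermediate filament protein, and COMMD6 the lowest at -0.23 each. FAU and RACK1 gave log2 fold changes of -0.24 and -0.09 in MDA-MB-231, against 0.23 and 0.13 in MDA-MB-435.

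The 38 genes of ribosome assembly, which act in rRNA transcription, modification and particle maturation, had medians of -0.06 and 0.21. In the common fit 2 were higher and 1 was lower, beside 4.39% and 2.85% of all genes. BYSL, a factor of small subunit maturation, rose by 0.54 ± 0.13 (log2, adjusted p = 0.0365, edgeR), with 1964 and 1812 counts in MDA-MB-231, against 1215 and 1673 in MDA-MB-435. RRN3, which recruits RNA polymerase I, rose by 0.45 ± 0.11 (adjusted p = 0.0379), from 1204 to 1261 counts in the shallower CPYPP library of MDA-MB-231 and from 2910 to 3121 in MDA-MB-435. RRS1, which helps to place the 5S particle, fell by 0.87 ± 0.18 (adjusted p = 0.0171), with 852 and 260 counts in MDA-MB-231, against 2072 and 1185 in MDA-MB-435.

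Of 10 chaperones and import receptors of ribosomal proteins 0 were called in the common fit (4.39% higher and 2.85% lower over all genes), and their medians were 0.03 and 0.10. HEATR3, an import factor of RPL5, had the lowest common value (-0.40 ± 0.17, adjusted p = 0.195), with 1001 and 455 counts in MDA-MB-231, against 1085 and 822 in MDA-MB-435. BCCIP, a nuclear chaperone, had the highest, 0.27 ± 0.12 (adjusted p = 0.234). Of 11 regulators of TOP mRNAs 1 was called, beside the same shares of all genes: LARP4, which binds poly(A) and stabilises mRNA, rose by 0.58 ± 0.14 (adjusted p = 0.0343), with 5191 and 4689 counts in MDA-MB-231, against 2690 and 4022 in MDA-MB-435. LARP1, the TOP-binding protein, gave 0.36 ± 0.11 (adjusted p = 0.0738), and MTOR -0.06 ± 0.12. The medians of this list were 0.07 and 0.34.

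Mitochondrial ribosomal protein genes, 78 in all, gave medians of -0.07 in MDA-MB-231, against 0.07 in MDA-MB-435. Of these, 57 of 77 were lower in the first line, beside 8416 of all 16441 genes. In the second line 49 of 78 were higher, beside 8039 of 16527. In MDA-MB-231, 10 were more than 20% lower and 1 more than 25% higher, beside 21.8% and 22.9% of all genes. In MDA-MB-435, 5 were more than 20% lower and 5 more than 25% higher, beside 28.5% and 22.0%. Their interquartile ranges were wider than those of the cytosolic genes, as the plot of lists shows. In the common fit 1 was higher and 1 lower, beside 4.39% and 2.85% of all genes.

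**Figure D3:**
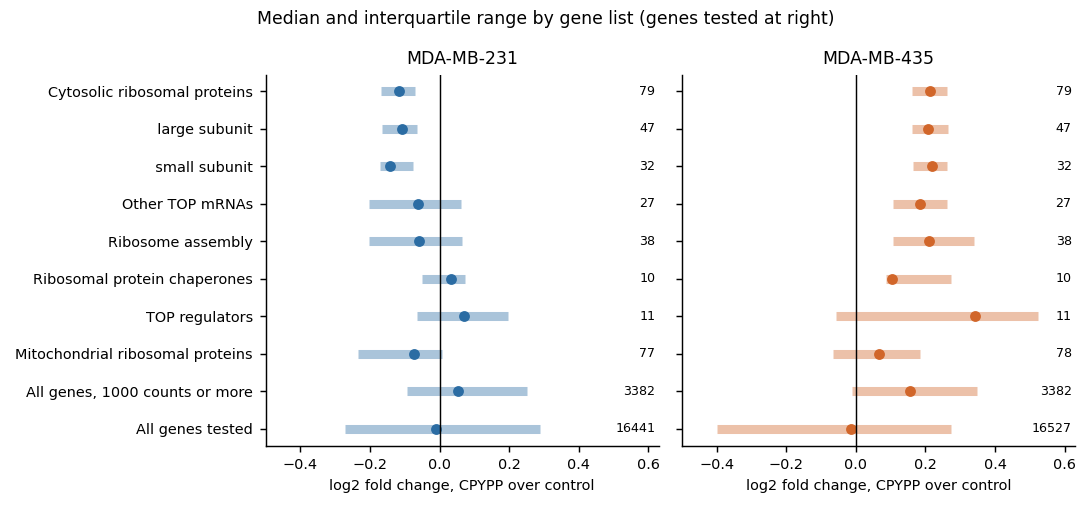
Median (point) and interquartile range (bar) of the log2 fold change of CPYPP over control for each gene list in MDA-MB-231 (left) and MDA-MB-435 (right), with the number of genes tested at the right of each panel. Cytosolic ribosomal protein genes lie at -0.12 and 0.21 with the narrow range of 0.10, while all genes tested lie near 0 with ranges of 0.56 and 0.67.

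Exon length moved with the values. All genes with merged exons under 2000 bases had a median log2 fold change of -0.15 in MDA-MB-231 (2782 genes) and -0.15 in MDA-MB-435 (3122 genes). The 11 members of that merged length had medians of -0.16 and 0.18, and the 68 with longer merged exons -0.11 and 0.22. Both groups of members thus had medians below 0 in MDA-MB-231 and above 0 in MDA-MB-435 by TMM. Merged length can far exceed transcript length, as for RPS20 (6765 bases against 638 in its principal transcript). This split therefore does not separate short from long mRNAs. The part of transcript length in these values was not tested.

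Of the members called between the lines, most were higher in MDA-MB-435. In the line term of the edgeR fit, 43 of 79 members (54.4%) were higher in MDA-MB-435 and 7 (8.86%) lower, beside 30.5% and 32.4% of all 16801 genes. The control and CPYPP libraries of a line stand in for replicates in this term, with 1 residual degree of freedom. Its p-values therefore do not measure the spread between cultures of a line. The median log2 difference, MDA-MB-435 over MDA-MB-231, was 0.41 for the members (range -0.68 to 1.58) and -0.01 for all genes. With total counts the calls were 51 higher and 6 lower, with DESeq2 47 and 8, and without the treatment block 38 and 3. For 56 of 79 members both CPM values of MDA-MB-435 exceeded both of MDA-MB-231, beside 37.0% of all genes tested, and among genes with at least 1000 counts in every library this held for 52 of 74 members and 29.5% of all. Of the large subunit, 26 of 47 were called higher and 5 lower, and of the small subunit 17 of 32 and 2. Similar shares were called higher among mitochondrial ribosomal protein genes (41 of 77, 53.2%), other TOP mRNAs (15 of 27, 55.6%) and ribosome assembly genes (19 of 38).

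**Figure D4:**
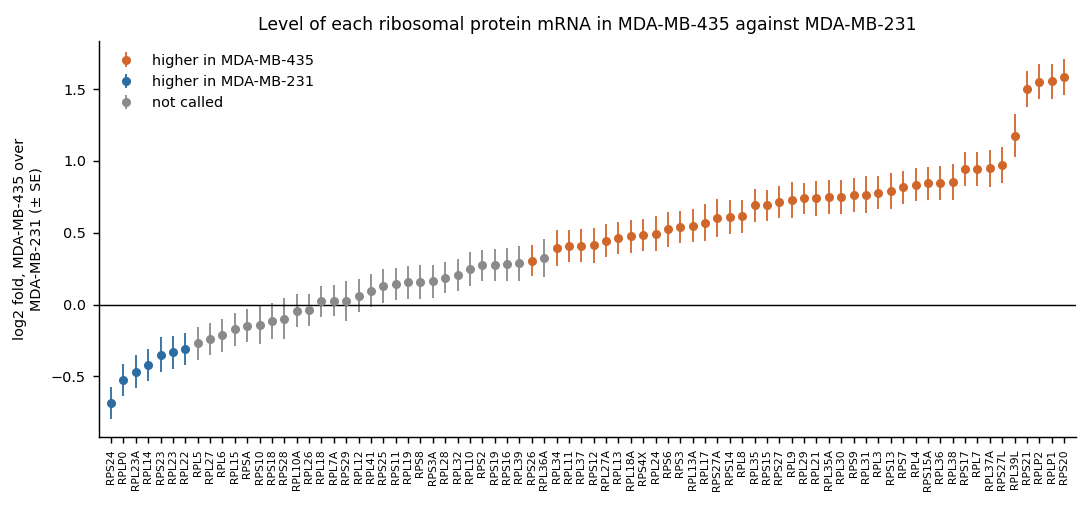
Log2 fold of the level in MDA-MB-435 over MDA-MB-231 for 78 of the 79 members tested, with the standard error of the edgeR fit, in order of size. Orange marks the 43 members called higher and blue the 7 called lower in MDA-MB-435; RPS21, RPLP2, RPLP1 and RPS20 lie above the rest, with RPS20 at 1.58, and RPS24 lies lowest at -0.68.

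The stalk proteins differed from one another. RPLP0, the base of the stalk, had 1394 and 1314 CPM in the MDA-MB-231 control and CPYPP libraries and 926 and 953 in those of MDA-MB-435. RPLP1 had 222 and 196 CPM in MDA-MB-231, against 578 and 648 in MDA-MB-435. RPLP2 had 172 and 144 CPM and 454 and 470 CPM. RPLP1 and RPLP2, which bind RPLP0 as dimers, were thus higher in both MDA-MB-435 libraries, and RPLP0 was higher in both MDA-MB-231 libraries. In the fit RPLP1 was 2.94-fold higher in MDA-MB-435 (log2 1.55 ± 0.12, adjusted p = 1.95e-06), RPLP2 2.93-fold higher (1.55 ± 0.12, adjusted p = 1.61e-06) and RPLP0 1.44-fold higher in MDA-MB-231 (-0.53 ± 0.11, adjusted p = 0.00194).

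In counts, which need no scaling, RPLP1 came to 0.159 of RPLP0 in the MDA-MB-231 control and to 0.149 after CPYPP, and to 0.625 and 0.680 in MDA-MB-435. RPLP2 came to 0.124, 0.110, 0.491 and 0.493 of RPLP0 in the same order. Both ratios were close to 4 times as large in the MDA-MB-435 control as in the MDA-MB-231 control, 3.93 for RPLP1 and 3.97 for RPLP2. The ratio of RPLP2 to RPLP1 varied less, from 0.726 to 0.786.

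RPS20, a protein of the head of the small subunit, had 186 and 168 CPM in MDA-MB-231, against 489 and 574 in MDA-MB-435 (log2 difference 1.58 ± 0.13, adjusted p = 2.00e-06). RPS21, also of the small subunit, had 77.9 and 65.6 CPM and 193 and 213 CPM (2.83-fold, adjusted p = 3.07e-06). In the other direction RPS24, a small subunit protein mutated in some Diamond-Blackfan anaemia, had 676 and 640 CPM in MDA-MB-231, against 396 and 423 in MDA-MB-435 (1.61-fold higher in MDA-MB-231, log2 -0.68 ± 0.11, adjusted p = 0.000366). RPL23A, which lies at the tunnel exit, and RPL14 were 1.38-fold and 1.34-fold higher in MDA-MB-231 (adjusted p = 0.00491 and 0.00739). The remaining members called higher in MDA-MB-231 were RPS23, RPL23 and RPL22 (adjusted p = 0.0294, 0.0294 and 0.0327). The CPM values of the lines did not overlap for any of these genes. Since the genes were chosen by their difference or call between the lines, this adds no support.

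By position, the members on chromosome 8 (RPL7, RPL8, RPL30 and RPS20) were called higher in MDA-MB-435 in 4 of 4 cases, with a median log2 difference of 0.85 beside 0.10 for all 603 genes tested of that chromosome. Chromosomes 2 and 15 also gave 4 of 4, with medians of 0.79 and 0.96 beside 0.24 and 0.35. On chromosome 17, 1 of 6 members was higher and 2 were lower, and on chromosome 19, 5 of 12 were higher and 0 lower. On chromosome 11, 4 of 5 were higher. On chromosomes 6 and 12, 1 of 4 members was higher in each, with medians of -0.08 and -0.06. Over all chromosomes 54.4% of the members and 30.5% of all genes were called higher. The share of all genes called on each chromosome was not counted. Gene copy number was not measured here.

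Paralogs were compared as shares of the counts of a pair, which do not depend on scaling between libraries. The counts were not divided by gene length, so for every pair a share of counts is not a share of molecules. RPL10L, a paralog of RPL10 needed in male germ cells, had 0 counts in the 4 libraries, while RPL10 had 10247 and 7044 in MDA-MB-231, against 11634 and 10872 in MDA-MB-435. With 3 counts as the limit for a count of 0, the share is up to 0.0293% of the pair in the MDA-MB-231 control. In its CPYPP library it is up to 0.0426%. The 95% intervals reach 0.0360% and 0.0524%. RPL3L, the muscle paralog of RPL3, had 5 and 1 counts in MDA-MB-231, against 3 and 3 in MDA-MB-435, against 15424, 10897, 26034 and 23535 for RPL3, and its highest share of the pair was 0.0324% (95% interval 0.0105% to 0.0756%), in the MDA-MB-231 control. Both genes fell under the filter on low counts and were not tested.

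RPL39L was measured in all libraries. It had 389 counts in the MDA-MB-231 control and 246 after CPYPP, or 8.74% (95% interval 7.92% to 9.60%) and 7.53% (6.65% to 8.49%) of the RPL39 pair. In MDA-MB-435 it had 907 and 668, or 16.4% (15.5% to 17.4%) and 11.9% (11.1% to 12.8%). The share was lower with CPYPP in both lines, with intervals that overlapped in MDA-MB-231 and did not in MDA-MB-435. RPL39L itself gave 0.863-fold (0.733 to 1.02) and 0.9497-fold (0.858 to 1.05) and RPL39 1.01-fold and 1.38-fold. Between the lines RPL39L was 2.26-fold higher in MDA-MB-435 (log2 1.18 ± 0.15, adjusted p = 7.01e-05), whereas RPL39 was not called (0.29 ± 0.12, adjusted p = 0.0601).

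RPS27L, a paralog of RPS27 known as a p53 target, held 27.7% and 27.5% of the counts of its pair in the MDA-MB-231 control and CPYPP libraries and 31.7% and 30.9% in those of MDA-MB-435. The intervals of control and CPYPP overlapped in each line. Both genes were called higher in MDA-MB-435, RPS27 1.64-fold (adjusted p = 0.000297) and RPS27L 1.96-fold (adjusted p = 7.85e-05). Because RPS27L has far longer merged exons, its share of counts is not a share of molecules.

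RPL22L1, a paralog of RPL22 that the naming rule leaves out, had 783 counts in the MDA-MB-231 control and 344 after CPYPP, or 12.5% (11.7% to 13.3%) and 8.50% (7.66% to 9.40%) of its pair with RPL22. In MDA-MB-435 it had 1821 and 1849, or 29.4% (28.3% to 30.5%) and 33.0% (31.8% to 34.2%). The share was lower with CPYPP in the first line and higher in the second, and the intervals of control and CPYPP did not overlap in either. In the common fit RPL22L1 gave -0.19 ± 0.21 (adjusted p = 0.690).

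RPL26L1 held 14.9% and 13.9% of its pair in MDA-MB-231, against 23.8% and 21.2% in MDA-MB-435, with intervals apart in MDA-MB-435 (22.8% to 24.9% and 20.1% to 22.3%). RPL7L1, which resembles RPL7, held 65.0% (64.4% to 65.5%) and 66.8% (66.1% to 67.4%) in MDA-MB-231, against 29.3% (28.7% to 29.8%) and 26.1% (25.5% to 26.7%) in MDA-MB-435. Its share was thus higher with CPYPP in the first line and lower in the second, with intervals apart in both. RPL36AL held 68.2% and 69.9% and 45.6% and 47.1% of its pair with RPL36A. The larger contrasts were thus between the lines: RPL7L1 and RPL36AL were lower in MDA-MB-435 (log2 -1.39 ± 0.11 and -1.05 ± 0.12, adjusted p = 2.02e-06 and 3.41e-05), and RPL22L1 and RPL26L1 higher (1.65 ± 0.21 and 0.75 ± 0.13, adjusted p = 7.20e-05 and 0.000653). RPL7 was 0.94 ± 0.12 higher on the log2 scale (adjusted p = 5.27e-05), opposite in direction to RPL7L1.

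**Figure D5:**
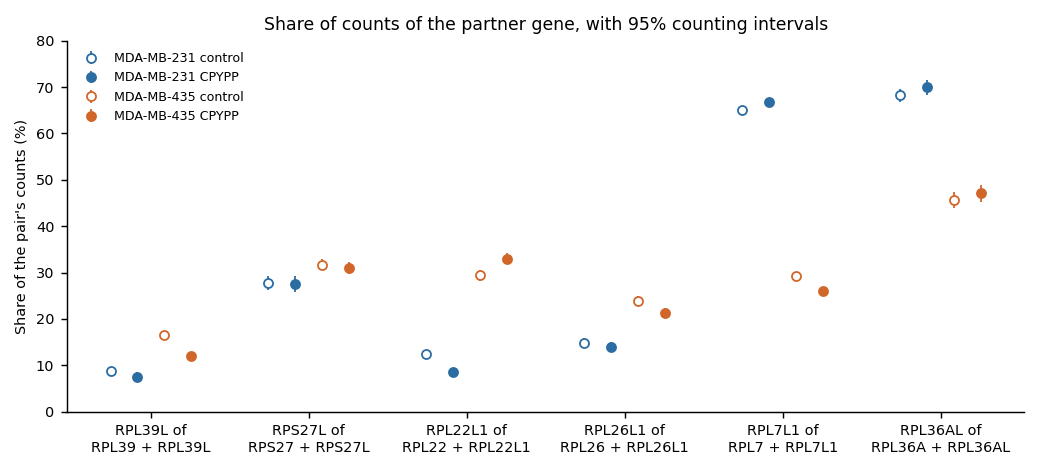
Share of a pair's counts held by the partner gene, in percent, for 6 pairs in the MDA-MB-231 (blue) and MDA-MB-435 (orange) control (open) and CPYPP (filled) libraries, with 95% counting intervals. RPL22L1 is lower with CPYPP in MDA-MB-231 (12.5% to 8.50%) and higher in MDA-MB-435 (29.4% to 33.0%).

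Several members share sequence or position with other genes. Rows named as ribosomal protein pseudogenes held 2.83% and 2.86% of all counts on members and pseudogenes in the MDA-MB-231 control and CPYPP libraries and 3.29% and 3.18% in those of MDA-MB-435. For 9 members a gene on the opposite strand that overlaps them held at least 10% as many counts, such as UBE2S at RPL28 (15682 against 22037 over the 4 libraries), LRR1 at RPS29 (3488 against 5823), TBC1D8 at RPL31 (3255 against 22423), GLA at RPL36A (5323 against 5744), LACTB at RPS27L (5358 against 5223) and LONP1 at RPL36 (13087 against 11755). Since the strand setting of the counting is not given in the sources used here, reads in the overlapping parts cannot be told apart. Readthrough genes on the same strand held 278 counts at RPS10, 85 at RPL17 and 14 at RPL36A over the 4 libraries. How many reads of these members such genes affected was not measured.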

How the data were processed

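Poly(A) RNA of 4 libraries (MDA-MB-231 and MDA-MB-435, control and CPYPP) was analysed. The authors deposited raw read counts per gene, without normalization. The submitters' processing notes name cutadapt 1.9.1, HISAT2 2.2.1, HTSeq 0.6.1, DESeq2 and the build GRCh37.p13. However, of 58254 identifiers shared with GENCODE v29, 58196 overlap their GRCh38 position there, as do all 81 members, so that coordinates here are those of GRCh38. Annotation version and strand setting are not given in the sources used here. Depth ranged from 17196385 to 22663954 counts, so that 3 counts, the limit allowed by 0, correspond to 0.127 to 0.181 CPM. 

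The counts were tested with edgeR 4.0.16 under R 4.3.3 (TMM on genes kept by filterByExpr; quasi-likelihood test with line and treatment as terms, Benjamini-Hochberg over 16801 genes; dispersion 0.0146) and DESeq2 1.42.0, and in Python 3.11.15 with scipy 1.17.1 (two-sided exact binomial test of the 2 libraries of a line, genes with at least 10 counts in 1 of them; Clopper-Pearson intervals at 95%). The TMM factors within lines were 1.02 and 0.976 in MDA-MB-231, against 1.05 and 0.950 in MDA-MB-435. A fold over 2 with an adjusted p under 0.05 follows the study; the rule of 25% higher or 20% lower carries no test. Scripts were tested on simulated data. The form of the two-sided binomial p was changed once after its counts had been seen, which left the members' count past 2-fold at 0.

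Members and lists were chosen with earlier results of these data known. Genes named are the paralog pairs, the stalk proteins and some well-studied members, those with the largest common changes (6 each way), the largest differences between lines in change or level (4 each way), the highest and lowest levels (5 each), members past a size or test threshold, FAU and RACK1, and the called or most changed genes of each list. EEF1A1, EEF2, LARP1, MTOR and RPL4 were named after their values were seen. Alternatives were scaling, filters, thresholds, DESeq2, no block and an assumed coefficient of variation of 0.2. Some genes, and 1 alternative that needs them, are not reported here. Start sequences are from RefSeq (GRCh38.p14).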

Additional observations from a re-analysis of the deposited data

Results flagged for a closer look

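By TMM the interval of the fold lay below 1 in MDA-MB-231 and above 1 in MDA-MB-435 for 63 of 79 ribosomal protein genes. This held for 3.72% of all genes tested in both lines. Among genes with at least 1000 counts in every library it held for 61 of 74 members and 9.76% of all. By this scaling the same treatment thus went with opposite small differences in the lines. The difference between the lines was not tested, because there was 1 library per condition. With total counts in place of TMM fewer members were higher in MDA-MB-435 (60 of 79), with the interval above 1 for 47 and below 1 for 8. Still, 79 of 79 had the higher log2 fold change there. By TMM, 67.3% of genes with at least 1000 counts in every library also had the higher log2 fold change in MDA-MB-435.

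Rows named as ribosomal protein pseudogenes, which enter no comparison above, held 19795 counts in the MDA-MB-231 control and 28300 in the MDA-MB-435 control. There were 1350 such rows, of which 434 had a count in any library and 9 had at least 1000. Whether these reads come from the pseudogenes or from the members was not tested.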

How the results depend on the processing

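No member was called in the common fit under any scaling or filter tried, by DESeq2 or without the block, and no library could be left out, since 3 libraries leave this fit no residual degree of freedom. Between the lines 7 members were lower in MDA-MB-435, and 3 when no replicate block for treatment was used. More than 20% lower with CPYPP in MDA-MB-231 were 0 members by TMM, 3 by total counts and 1 by upper quartile. More than 25% higher in MDA-MB-435 were 5 by TMM, 0 by total counts, 1 by upper quartile and 2 by TMM over all genes (an alternative added after seeing the data), and 0 passed a fold of 1.5. The members' median was -0.19 in MDA-MB-231 by total counts, and in MDA-MB-435 it was 0.065 by total counts and 0.10 by upper quartile. Leaving out the mitochondrial genome gave member shares of 3.22%, 2.83%, 3.85% and 3.97% in the MDA-MB-231 control and CPYPP and the MDA-MB-435 control and CPYPP libraries. Without the most abundant gene of each subunit the large subunit share was 64.0%, 64.3%, 64.5% and 64.4%. Over the 79 members and all alternatives between the lines, a call was gained 28 times and lost 11 times, as for RPL22 (adjusted p = 0.0556 by total counts, edgeR), and no called member changed direction. Values near 0 that were not called changed sign for 2 members between the lines (RPL26, -0.04 and 0.016 by total counts, is 1) and for 43 in the common fit. Depth does not limit the members, but the lack of repeat libraries does.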
